A study of Homo sapiens with 6 samples.

Results

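The genes examined were 10 regulators of the epithelial-mesenchymal transition (EMT): the transcription factors SNAI1, SNAI2, ZEB1, ZEB2 and TWIST1, and the epithelial counter-regulators GRHL2, ESRP1, ESRP2, OVOL1 and OVOL2. They were chosen by symbol, and all 10 were found among the 60546 gene identifiers of the deposited table. RNA was sequenced in HCT-116 cells, an established human colon carcinoma line with an epithelial growth pattern, which carried either the retroviral construct PMSCV-GOLPH3 (3 libraries) or the empty construct PMSCV-Vector (3 libraries). GOLPH3 is a Golgi membrane protein that binds phosphatidylinositol 4-phosphate, and the comparison asked how its overexpression changes the transcriptome. Both groups were puromycin-selected, share the genotype label wild type, and were grown in DMEM with serum. The GOLPH3-labelled libraries carry P8, P12 and P13 in their titles (replicates 1, 2 and 3), and the Vector libraries carry P12, P11 and P13. The methods describe 3 generations of each stable line and give no number of independently derived lines, so the p-values measure the spread between these samples only.

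The GOLPH3 transcript itself was read first. It held 1630, 1272 and 1384 normalized reads with the GOLPH3 label and 1968, 1892 and 1472 with the Vector label (log2 fold change −0.31 ± 0.27, SE, n = 3 per group, limma adjusted p = 0.609). It was therefore not higher in the GOLPH3-labelled libraries, and every direction below is one between libraries so labelled. A normalized read is a read count divided by the library's size factor, and 1 read was worth 0.825 to 1.10 normalized reads. The libraries held 15708846 to 21900764 reads, of which 4.41 to 9.97% came from mitochondrial genes.

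EMT is the program by which epithelial cells lose cell-cell junctions and gain migratory, mesenchymal features. SNAIL (SNAI1, SNAI2) and ZEB (ZEB1, ZEB2) proteins are zinc-finger repressors that bind E-box sequences in promoters of epithelial genes such as CDH1, which encodes E-cadherin, and TWIST1 is a basic helix-loop-helix factor with related effects. On the epithelial side, GRHL2 activates junction genes, OVOL1 and OVOL2 are zinc-finger repressors of EMT factors, and ESRP1 and ESRP2 are RNA-binding proteins that keep epithelial splice forms. ZEB1 is known to form mutually repressive loops with GRHL2, the OVOL factors and microRNAs of the miR-200 family.

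Of the 10 genes, ZEB1 and ZEB2 were lower and ESRP2 and OVOL1 were higher in the GOLPH3-labelled libraries (limma on log2 of normalized reads + 1, Benjamini-Hochberg adjusted p under 0.05). All 10 passed the filter on low values (1 normalized read in 3 or more libraries), ZEB2 through the Vector libraries only. With no filter, the limma adjusted p of ZEB2 was 0.00786. Over all 26536 genes tested, 1346 passed, or 5.07%: 253 higher (0.953%) and 1093 lower (4.12%). edgeR on the recovered reads placed 2 of the 10 genes higher and 2 lower, beside 6.58% of 16908 genes (1.48% higher and 5.1% lower). DESeq2 placed 3 higher and 2 lower, beside 8.89% of 23026 genes, with another split of directions (620 higher, 2.69%, and 1426 lower, 6.19%). With the P number as a block, which leaves 1 residual degree of freedom, 9 of the 10 passed, all except OVOL2, beside 22.9% of all genes. The groups did not overlap for 6 of the 10 genes, 4 higher and 2 lower, against a background of 22.0% of all genes (9.2% higher and 12.8% lower). The median log2 fold change was −2.87 for the 5 transcription factors and 1.42 for the 5 counter-regulators, beside 0.02 over all genes tested.

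**Figure D1:**
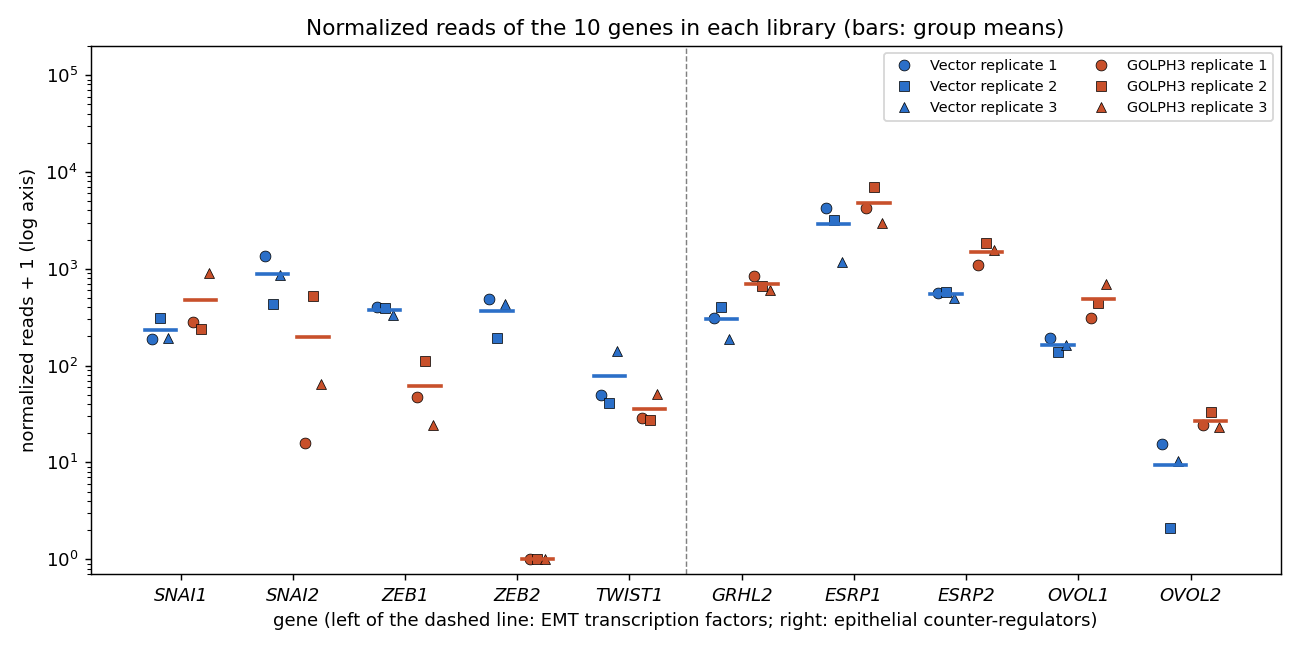
Normalized reads + 1 (log axis) of the 10 genes in each of the 6 libraries. Points are single libraries, with shape giving the replicate, and bars are group means. ZEB2 lies at 0 reads in all 3 GOLPH3-labelled libraries, and SNAI2 spreads from 15 to 517 normalized reads among those libraries.

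ZEB2 gave the widest separation of the 10 genes. No read was counted in any GOLPH3-labelled library, while the Vector libraries held 482, 191 and 431 normalized reads, or 468, 174 and 502 reads. The groups were far apart, with the P11 library lowest among the Vector libraries. Against a floor of 3 reads in each GOLPH3-labelled library, the mean of ZEB2 was at least 114-fold lower there than the Vector mean. Each fold given below as "at least" is such a bound on group means, and single Vector libraries can give less. ZEB2 passed the threshold with all 6 libraries (limma adjusted p = 3.13e-06) and in all 18 alternative fits. At this depth, absence of ZEB2 transcript cannot be told from a level below 2.47 to 3.22 normalized reads, the worth of 3 reads in these libraries. ZEB2 lies on chromosome 2 from 144364364 to 144524583, minus strand (GRCh38, GENCODE 29), and its antisense gene ZEB2-AS1 had no read in any library.

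ZEB1 was present in every library and lower in those labelled GOLPH3. The GOLPH3-labelled libraries held 46.2, 111 and 23.5 normalized reads, and the Vector libraries held 398, 388 and 329. The groups did not overlap, and the means were 60.3 ± 45.6 and 372 ± 37.5 (SD, n = 3), a 6.16-fold difference. The Vector libraries were close together, whereas the GOLPH3-labelled libraries differed among themselves, with P12 highest and P13 lowest. On the log2 scale ZEB1 fell by 2.87 ± 0.50 (SE, 95% interval −3.97 to −1.78, limma adjusted p = 0.00403). ZEB1 passed the threshold in 17 of 18 alternative fits (the exception was the fit with no filter on low values, adjusted p = 0.215). Within the pair of libraries at P12 the log2 difference was −1.83, and within the pair at P13 it was −3.75. ZEB1 lies on chromosome 10 from 31318495 to 31529814, plus strand. Its antisense neighbour ZEB1-AS1 held 31.1, 92.4 and 49.1 normalized reads in the GOLPH3-labelled libraries and 117, 64.6 and 65.2 in the Vector libraries, with overlapping groups (log2 fold change −0.59 ± 0.49, limma adjusted p = 0.588). Whether counting used the strand is not given in the sources used here, so reads of the overlapping parts of ZEB1 and ZEB1-AS1 cannot be told apart.

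SNAI2 (SLUG) had a low mean in the GOLPH3-labelled libraries, but the call changed with the fit. It held 15, 517 and 63 normalized reads in the GOLPH3-labelled libraries and 1354, 429 and 851 in the Vector libraries. The P12 GOLPH3-labelled library lay above the P11 Vector library, so the groups overlapped. The means were 198 ± 277 and 878 ± 463 (SD, n = 3). The GOLPH3-labelled libraries spanned a 34.4-fold range, against 3.15-fold for Vector. The log2 fold change of −3.29 ± 0.94 (SE, 95% interval −5.34 to −1.24) did not pass the threshold (limma adjusted p = 0.0716). Without the P12 GOLPH3-labelled library it was −4.63 (adjusted p = 0.00353), while edgeR gave −2.11 (adjusted p = 0.253) and DESeq2 −2.15 (adjusted p = 0.399). With all 6 libraries and the P number as a covariate, limma gave −2.67 (adjusted p = 0.0464). The log2 difference was −1.39 within the P12 pair and −3.74 within the P13 pair.

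SNAI1 (SNAIL) was the only transcription factor of the 5 with a higher mean in the GOLPH3-labelled libraries, and that mean rested on 1 library. It held 281, 238 and 892 normalized reads there, and 188, 309 and 192 in the Vector libraries. The P13 GOLPH3-labelled library stood above all others, and the remaining libraries overlapped. The log2 fold change was 0.80 ± 0.47 (SE, 95% interval −0.23 to 1.84, limma adjusted p = 0.425), and without the P13 GOLPH3-labelled library it was 0.21. TWIST1 held 27.9, 26.4 and 50.2 normalized reads in the GOLPH3-labelled libraries, and 48.4, 40.5 and 142 in the Vector libraries. Here the P13 Vector library stood above the rest and the groups overlapped. TWIST1 had a log2 fold change of −0.95 ± 0.55 (SE, 95% interval −2.15 to 0.25, limma adjusted p = 0.416), and without the P13 Vector library it was −0.40. The intervals of SNAI1 and TWIST1 leave room for changes of over 1 on the log2 scale, upward for SNAI1 and downward for TWIST1.

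GRHL2 was read next as the transcriptional activator of epithelial junction genes. It held 832, 666 and 607 normalized reads in the GOLPH3-labelled libraries, and 307, 404 and 185 in the Vector libraries. All 3 GOLPH3-labelled libraries lay above all 3 Vector libraries, with means of 702 ± 116 and 299 ± 109.7 (SD, n = 3). The log2 fold change of 1.29 ± 0.35 (SE, 95% interval 0.53 to 2.04) missed the threshold (limma adjusted p = 0.0559). DESeq2 placed it past the threshold (adjusted p = 0.0209) and edgeR did not (adjusted p = 0.0625). Without the P11 Vector library, the highest of its group, the limma adjusted p was 0.0360. GRHL2 passed in 4 of 18 alternative fits. Its log2 difference was 1.12 within the P12 pair and 1.71 within the P13 pair.

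OVOL1 rose in the GOLPH3-labelled libraries. It held 312, 446 and 695 normalized reads there, and 192, 137 and 162 in the Vector libraries. The groups did not overlap, and the means were 484 ± 194 and 164 ± 27.8 (SD, n = 3). OVOL1 had a log2 fold change of 1.49 ± 0.36 (SE, 95% interval 0.70 to 2.29, limma adjusted p = 0.0340). The call was kept without the P8 GOLPH3-labelled library and lost without any one of the other 5 libraries (highest adjusted p = 0.192), and OVOL1 passed in 9 of 18 alternative fits. The log2 difference was 1.21 within the P12 pair and 2.09 within the P13 pair. The gene lies on chromosome 11 from 65787022 to 65797219, plus strand, and its antisense neighbour OVOL1-AS1 held 3.43 to 43.8 normalized reads.

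OVOL2, the paralog of OVOL1, was at low counts. It held 23.6, 32.2 and 22.4 normalized reads in the GOLPH3-labelled libraries, and 14.4, 1.10 and 9.44 in the Vector libraries, where the P11 library had 1 read. The groups did not overlap, but the log2 fold change of 1.94 ± 0.74 (SE, 95% interval 0.33 to 3.56) did not pass (limma adjusted p = 0.186) and passed in none of the 18 alternative fits. The OVOL2 locus on chromosome 20 (17956979 to 18059188, minus strand) overlaps SNX5 on the same strand, which held 2559 to 3647 normalized reads in the GOLPH3-labelled libraries and 4031 to 5295 in the Vector libraries.

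ESRP2, an RNA-binding protein of the epithelial splicing program, rose in the GOLPH3-labelled libraries. It held 1088, 1829.8 and 1547 normalized reads there, and 567, 572 and 499 in the Vector libraries. The groups did not overlap, and the Vector libraries lay close together (546 ± 41.0 against 1488 ± 374, SD, n = 3). The estimated log2 fold change was 1.42 ± 0.29 (SE, 95% interval 0.78 to 2.06, limma adjusted p = 0.0136), with 1.69 within the P12 pair and 1.63 within the P13 pair. The call was kept without the P8 GOLPH3-labelled library or the P11 Vector library and lost without any one of the other 4 (highest adjusted p = 0.0844), and ESRP2 passed in 12 of 18 alternative fits. ESRP2 lies on chromosome 16 from 68229111 to 68238102, minus strand, and overlaps NFATC3 on the opposite strand, which held 314 to 539 normalized reads in the GOLPH3-labelled libraries and 536 to 735 in the Vector libraries.

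ESRP1, the paralog of ESRP2, was the most abundant of the 10 genes and did not separate the groups. It held 4264, 7000.1 and 2934 normalized reads in the GOLPH3-labelled libraries, and 4268, 3176 and 1176 in the Vector libraries. The P13 Vector library was lowest and the groups overlapped. Its log2 fold change was 0.82 ± 0.46 (SE, 95% interval −0.19 to 1.83, limma adjusted p = 0.401), and without the P13 Vector library it was 0.27. Whether the change of ESRP2 differed from that of ESRP1 was not tested.

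**Figure D2:**
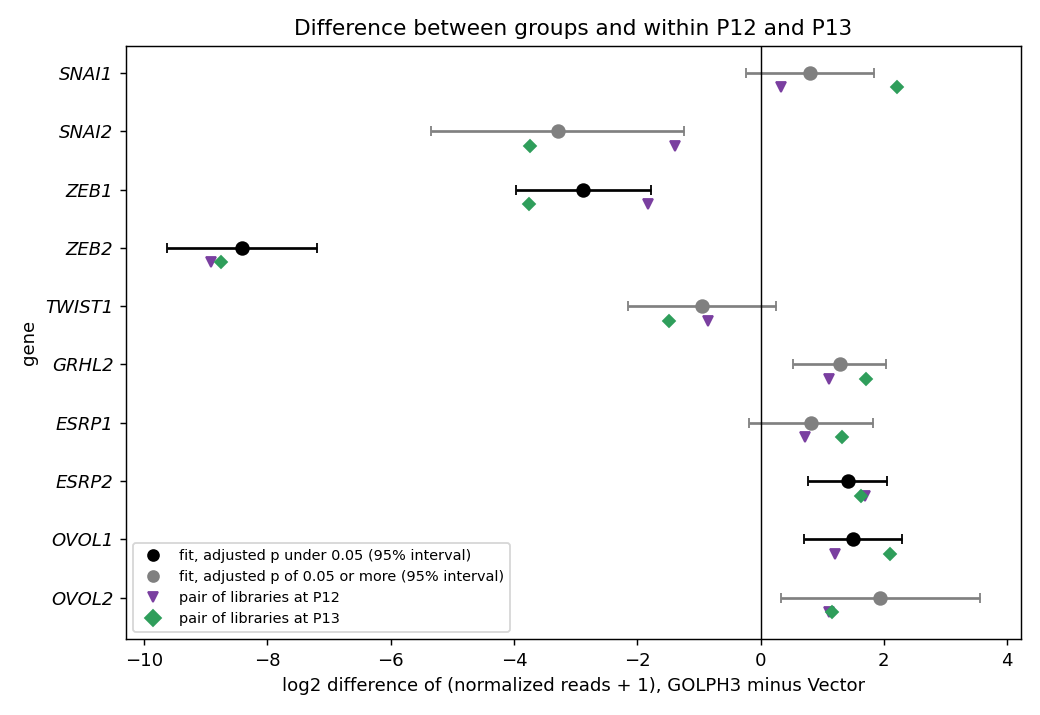
Log2 difference of normalized reads + 1, GOLPH3-labelled libraries minus the Vector libraries, for each gene. Circles give the limma estimate with its 95% interval (black where the adjusted p is under 0.05), and the triangle and diamond give the difference within the single pair of libraries at P12 and at P13. For all 10 genes both pairs have the sign of the fit, and SNAI1 ranges from 0.34 at P12 to 2.21 at P13.

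Levels were set side by side per kilobase of exon (union of exons in GENCODE 29), since the genes differ in length. In the GOLPH3-labelled libraries, ESRP1 led with a mean level of 971 normalized reads per kilobase. SNAI1 (279) and ESRP2 (268) followed with overlapping libraries, then OVOL1 (126), GRHL2 (116), SNAI2 (58.5), TWIST1 (17.1), OVOL2 (12), ZEB1 (6.97) and ZEB2 (0). Among neighbours in that order, the libraries did not overlap between ESRP1 and SNAI1, between ESRP2 and OVOL1, or between ZEB1 and ZEB2, and overlapped for the other pairs. In the Vector libraries, ESRP1 led again (589), followed by SNAI2 (259), SNAI1 (136), ESRP2 (98.1), GRHL2 (49.3), ZEB1 (43.0), OVOL1 (42.6), TWIST1 (37.8), ZEB2 (14.7) and OVOL2 (3.82). There the libraries did not overlap between SNAI1 and ESRP2, ESRP2 and GRHL2, TWIST1 and ZEB2, or ZEB2 and OVOL2. Division by the longest transcript in place of the exon union moved 6 of the 20 ranks, each between neighbours. With that length, ZEB2 stood at 38.4 in the Vector libraries and overlapped TWIST1 (46.1). SNAI1 and ESRP2 overlapped there as well.

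The makeup of the 5 transcription factors differed between libraries. The summed level was 190, 320 and 575 normalized reads per kilobase in the GOLPH3-labelled libraries and 600, 382 and 490 in the Vector libraries, with overlapping groups. SNAI1 made up 87.7% of that sum in the P8 GOLPH3-labelled library, 44.2% at P12 and 92.0% at P13. In the Vector libraries its share was 18.6% at P12, 47.9% at P11 and 23.3% at P13. SNAI2 made up 2.33%, 47.7% and 3.23% in the GOLPH3-labelled libraries, and 66.5%, 33.1% and 51.2% in the Vector libraries. The P12 GOLPH3-labelled library and the P11 Vector library were the ones in which neither SNAI1 nor SNAI2 made up most of the sum. In the other 2 libraries of each group 1 of them did, SNAI1 with the GOLPH3 label and SNAI2 with the Vector label. The counter-regulators summed to 1300, 2005 and 1171 in the GOLPH3-labelled libraries and to 1085, 857 and 408 in the Vector libraries, with ESRP1 at 51.4 to 80.7% of the sum.

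**Figure D3:**
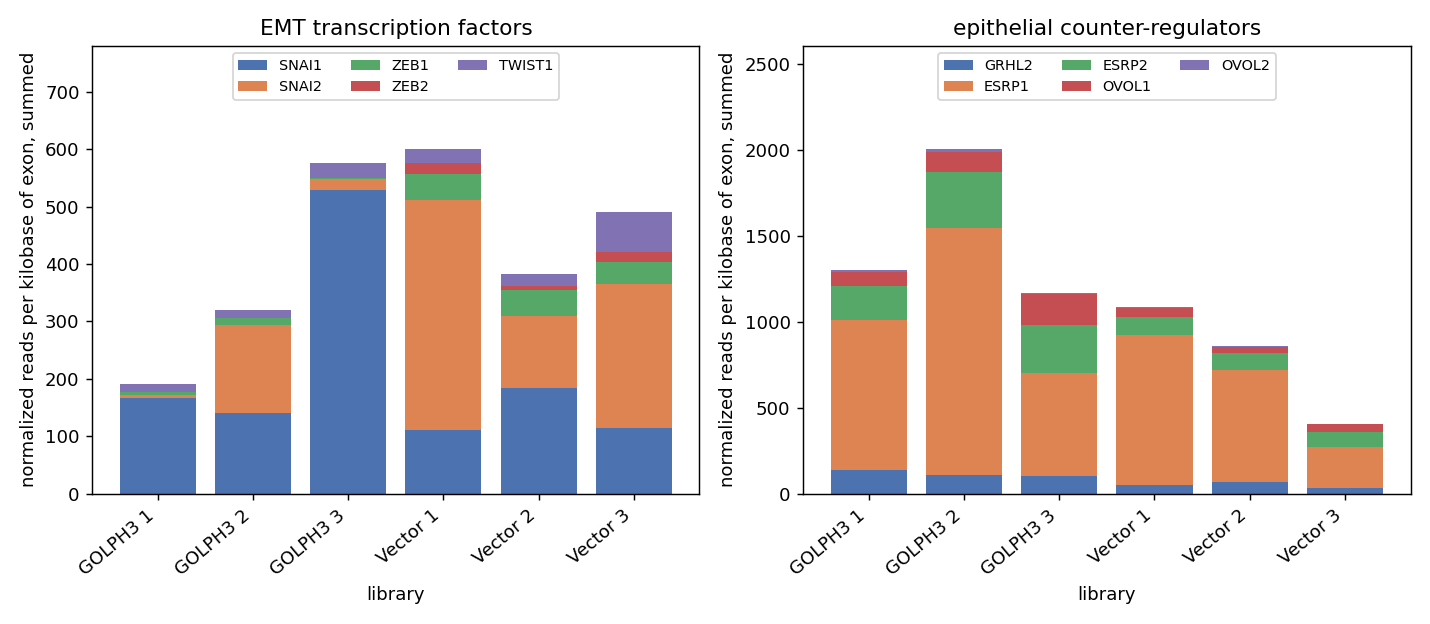
Summed normalized reads per kilobase of exon of the 5 EMT transcription factors (left) and the 5 epithelial counter-regulators (right) in each library, stacked by gene. SNAI1 fills most of the bar in the P8 and P13 GOLPH3-labelled libraries (replicates 1 and 3), and SNAI2 in the P12 and P13 Vector libraries (replicates 1 and 3).

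Ratios within a library compare each repressor with the epithelial factor it is known to oppose, and library scaling cancels in them. The log2 ratio of ZEB1 to GRHL2 per kilobase was −4.66, −3.08 and −5.15 in the GOLPH3-labelled libraries. It was −0.14, −0.57 and 0.31 in the Vector libraries, so that both transcripts were at about equal levels there. The log2 ratio of ZEB1 to ESRP2 was −5.17, −4.66 and −6.62 against −1.15, −1.20 and −1.24, and that of ZEB1 to OVOL1 likewise did not overlap between groups. For SNAI2 to GRHL2 the groups did not overlap either, but the P12 GOLPH3-labelled library (0.47) lay close to the P11 Vector library (0.92). The ratios SNAI1 to OVOL1, SNAI1 to SNAI2, ESRP1 to ESRP2 and OVOL1 to OVOL2 overlapped. These ratios combine values already given and were not tested.

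**Figure D4:**
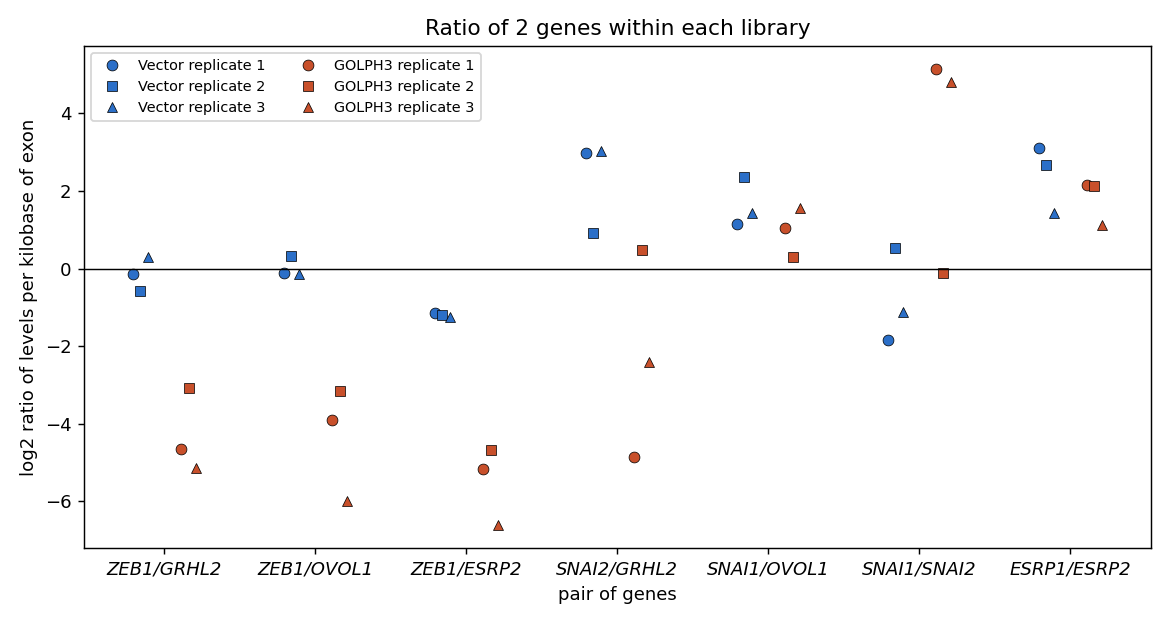
Log2 ratio of the levels per kilobase of exon of 2 genes, 1 point per library, with Vector in blue and GOLPH3 in red. The ratios of ZEB1 to GRHL2, OVOL1 and ESRP2 leave a gap between the groups, while SNAI1 to OVOL1 and ESRP1 to ESRP2 overlap.

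The rest of the transcription factor network was read from lists chosen by known role. Of 25 other EMT-associated transcription factors tested (27 listed), 8 fell, 1 rose and 16 did not pass, with a median log2 fold change of −0.79. The 36% that passed stand beside 5.07% of all genes. Of the 25 tested, 5 were at 3 reads or fewer in the GOLPH3-labelled libraries only, and passed the filter through the Vector libraries. Among those that fell were HAND1, LEF1, TCF4, TWIST2, SIX2, GSC and FOXF1, and the gene that rose was SOX9 (log2 fold change 1.16). HAND1, LEF1, TCF4 and TWIST2 passed in all 18 alternative fits, SIX2 in 17 of 18 and GSC in 16 of 17. FOXF1 and SOX9 each passed in 10 of 18. HAND1, a basic helix-loop-helix factor of mesoderm and heart, LEF1, a nuclear partner of beta-catenin, and TWIST2, the paralog of TWIST1, had 0 reads in every GOLPH3-labelled library. They were at least 259-fold, 101-fold and 27.3-fold lower there. TCF4, an E-protein that pairs with TWIST factors, had a single read in the GOLPH3-labelled libraries and a mean of 253 ± 96.8 normalized reads (SD, n = 3) in the Vector libraries. The homeobox gene SIX2 (log2 fold change −4.68) also fell. Of 21 other epithelial transcription factors tested (23 listed), 2 rose, the ETS factors EHF (2.58 ± 0.40, limma adjusted p = 0.00188) and ELF3 (1.58 ± 0.31, adjusted p = 0.00958), and 1 fell, the zinc-finger factor GATA6 (−1.91 ± 0.41, adjusted p = 0.0172). The median of that list was 0.40, and the 14.3% that passed stand beside 5.07% of all genes. EHF passed in 17, ELF3 in 14 and GATA6 in 12 of 18 alternative fits.

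Genes that these regulators are known to control were counted next. Of 35 epithelial effector genes tested (36 listed), which encode junction proteins, keratins, polarity proteins and epithelial proteases, 18 rose and none fell, with a median log2 fold change of 1.42, beside 0.953% of all genes that rose. None fell at an unadjusted p under 0.05 or with edgeR or DESeq2. edgeR gave 17 higher and DESeq2 25 higher, but with 1 library left out the count ranged from 4 (without the P13 GOLPH3-labelled library) to 19 (without the P8 GOLPH3-labelled library). It was 8 without the P12 GOLPH3-labelled library, and 10, 7 and 7 without the P12, P11 and P13 Vector libraries. With all 6 libraries it was 1 with no filter on low values, 4 with no mean-variance trend, and 28 where the P number entered as a block. The genes with the smallest p were PRSS8 (log2 fold change 2.17), a membrane-bound serine protease, KRT19 (1.92), an intermediate filament protein, AP1M2 (1.49), a subunit of an epithelial sorting adaptor, the tight junction proteins CLDN4 (2.06) and CLDN3 (2.65), and CDH3 (1.45), which encodes P-cadherin. CDH1, the E-cadherin gene, missed the threshold (1.13 ± 0.31, SE, limma adjusted p = 0.0578).

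Of 27 mesenchymal effector genes tested (33 listed), 7 fell and 1 rose, with a median of 0.05. The 29.6% that passed stand beside 5.07% of all genes, and with no filter on low values 2 were lower. VIM, the intermediate filament vimentin, fell by 7.44 on the log2 scale, from a mean of 2751 ± 957 to 19.4 ± 19.1 normalized reads (SD, n = 3). CDH2 (N-cadherin) had means of 1.27 in the GOLPH3-labelled libraries and 578 in the Vector libraries, and MMP2, a matrix metalloproteinase, had 0.825 and 185. Of the 27 tested, 3 were at 3 reads or fewer in the GOLPH3-labelled libraries only, CDH2 and MMP2 among them. They passed the filter through the Vector libraries. The secreted proteins FSTL1 (log2 fold change −2.52), SPARC (−3.21) and the collagen chain COL5A1 (−4.24) fell as well. The gene that rose was MMP14 (1.69 ± 0.40, limma adjusted p = 0.0302), a membrane-bound metalloproteinase.

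**Figure D5:**
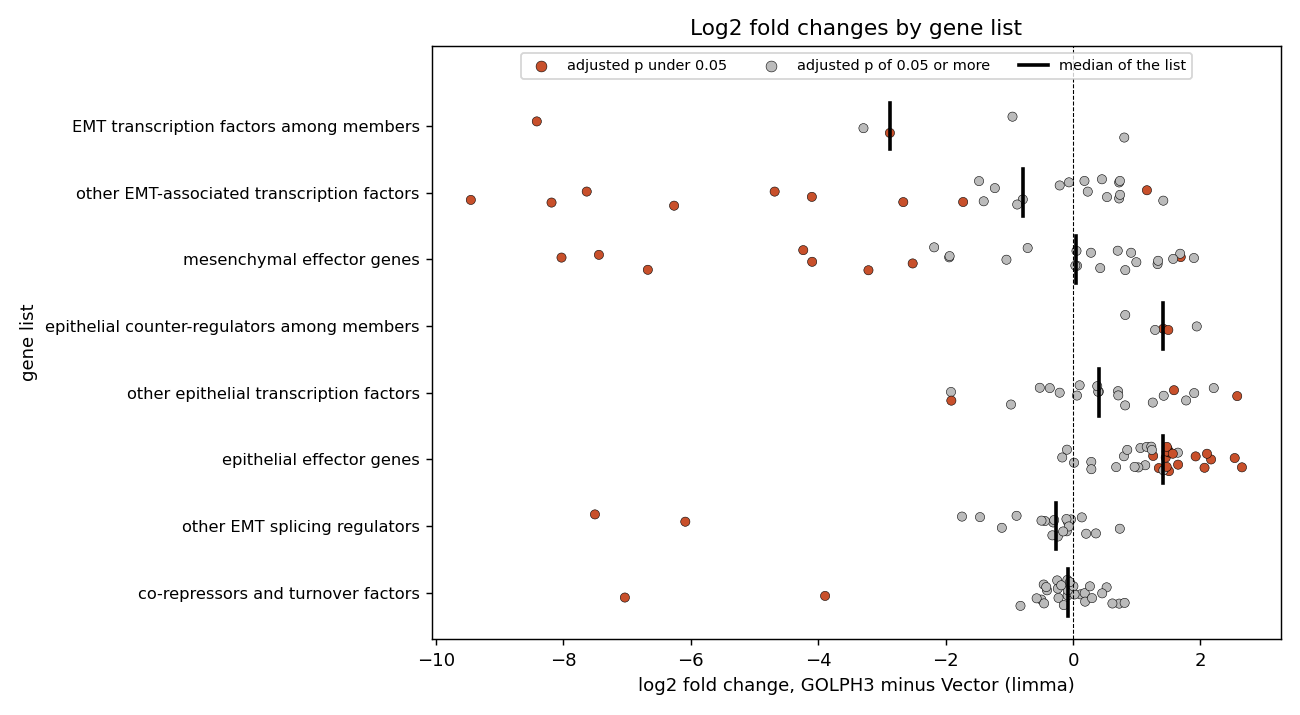
Log2 fold change (GOLPH3 minus Vector, limma) of each gene tested, by list, with the median of each list as a vertical bar and genes with an adjusted p under 0.05 in red. Epithelial effector genes lie around a median of 1.42, and the lists of EMT-associated factors and mesenchymal effectors have long tails to the left.

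Splicing regulators that act beside or against the ESRP proteins, and the partners that act on SNAIL and ZEB proteins, were counted in the same way. Of 22 splicing regulators tested (23 listed), 2 fell and none rose (1 did at an unadjusted p under 0.05, and none with edgeR or DESeq2). DESeq2 placed 5 lower, edgeR 2, and the fit without the P8 GOLPH3-labelled library 4. The 2 that fell with limma were CELF2, a regulator of muscle and neural exons, and the neural regulator NOVA1 (at least 22.2-fold lower). CELF2 had means of 0.275 and 240 normalized reads in the GOLPH3-labelled and Vector libraries. Both passed the filter through the Vector libraries only. PTBP2, a repressor of neural exons, came next and did not pass (−1.12 ± 0.33, limma adjusted p = 0.0834). Their share of 9.09% stands beside 5.07% for all genes, and the list's median was −0.27. Of 32 co-repressors and turnover factors tested (33 listed), 2 fell and none rose (also none at an unadjusted p under 0.05, or with edgeR or DESeq2), with a median of −0.08. The 6.25% that passed is near the 5.07% of all genes. Those that fell were the kinase PRKD1 (at least 49.8-fold lower), which phosphorylates SNAI1, and the deubiquitinase USP51 (at least 4.60-fold lower), which acts on ZEB1. Both had 0 reads in every GOLPH3-labelled library and passed the filter through the Vector libraries only. The kinase MARK1 did not pass (−0.83 ± 0.33, adjusted p = 0.205). Of 8 microRNA host and antisense transcripts tested (14 listed), none passed with limma, with edgeR (3 tested) or with DESeq2 (9 tested), and none had an unadjusted p under 0.05 with limma. The smallest p values of that list belonged to MIR200B (0 to 5.34 normalized reads), ZEB1-AS1 and MIR34AHG (log2 fold change 0.46 ± 0.44). MIR200CHG, the host transcript of miR-200 family members, held 3.22 to 14.8 normalized reads (log2 fold change 0.61, 95% interval −0.89 to 2.1, limma adjusted p = 0.704). Mature microRNAs were not analysed here.

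Promoter letters were read for the repressors and for the epithelial effector genes that rose, because SNAIL and ZEB proteins bind the E-box CACCTG, which reads CAGGTG on the other strand. Windows of 250 bases before each start were taken from RefSeq promoters of GRCh38.p14. Only ZEB1 (7 windows) and ZEB2 (1 window) of the 10 genes had an entry, and 22 of the 36 epithelial effector genes, under the 80% set as the minimum for a share over that list. Among all 27305 genes with an entry, 20.6% held the letters on either strand in at least 1 window, and 3.08% held them 2 or more times in a window. The stretches below lie outside annotated untranslated regions and belong to ZEB1 and to 3 of the effector genes that rose, chosen because they hold the E-box, which stands in capitals. AP1M2 holds it 3 times within 57 bases before its start. SPINT1 (1.47, limma adjusted p = 0.0120) encodes an inhibitor of epithelial serine proteases, and TJP3 (2.1, adjusted p = 0.0372) the tight junction scaffold ZO-3. CRB3, JUP and LAD1 rose as well and hold it in windows that lie mostly or wholly in annotated untranslated regions and are not printed. CLDN3, CLDN4 and LSR rose and hold none in their windows. The CLDN4 window lies wholly in annotated untranslated regions, the LSR window does for 127 of 250 bases, and the CLDN3 window lies outside them. ZEB2 holds none in its 1 window, which lies wholly in annotated untranslated regions. ZEB1 holds it in 2 of its 7 windows. SPINT1 and TJP3 hold it in window 2 of 2 only. A match is a run of letters and not a measured binding site.
ZEB1, chr10:31318167-31318416, plus strand: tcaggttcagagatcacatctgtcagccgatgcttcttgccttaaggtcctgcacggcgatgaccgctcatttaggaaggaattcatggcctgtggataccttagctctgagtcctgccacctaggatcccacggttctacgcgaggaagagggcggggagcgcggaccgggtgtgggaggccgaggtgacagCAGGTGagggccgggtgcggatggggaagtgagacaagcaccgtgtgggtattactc
AP1M2, chr19:10587316-10587562, minus strand: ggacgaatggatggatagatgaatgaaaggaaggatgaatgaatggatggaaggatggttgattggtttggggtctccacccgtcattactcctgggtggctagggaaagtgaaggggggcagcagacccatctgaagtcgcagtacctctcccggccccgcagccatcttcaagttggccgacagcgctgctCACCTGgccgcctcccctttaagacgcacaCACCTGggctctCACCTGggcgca
SPINT1, chr15:40844279-40844476, plus strand: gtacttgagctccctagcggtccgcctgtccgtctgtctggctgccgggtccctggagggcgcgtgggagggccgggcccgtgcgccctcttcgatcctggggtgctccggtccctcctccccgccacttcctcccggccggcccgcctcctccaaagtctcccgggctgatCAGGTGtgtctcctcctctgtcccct
TJP3, chr19:3721487-3721736, plus strand: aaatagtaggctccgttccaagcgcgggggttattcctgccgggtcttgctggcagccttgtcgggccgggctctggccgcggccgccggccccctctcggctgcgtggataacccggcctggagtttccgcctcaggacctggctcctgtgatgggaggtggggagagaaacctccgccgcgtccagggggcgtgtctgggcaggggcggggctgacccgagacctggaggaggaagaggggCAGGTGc

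The 10 genes did not follow a single pattern across the 6 libraries. Likeness was measured as the root-mean-square difference of log2 values centred on their mean, over 6 libraries. Among the 10, the nearest pairs were ESRP2 and OVOL1 (0.31), GRHL2 and ESRP2 (0.44) and GRHL2 and ESRP1 (0.55). Among 12653 other genes, OVOL1 was nearest to ATG9B (0.06) and BOK (0.12), GRHL2 to MACC1 (0.12) and SMURF2 (0.14), ESRP2 to RGS3 (0.12) and ARHGEF5 (0.13), and ESRP1 to MAP2 (0.13) and NABP1 (0.20). ZEB2 was nearest to TMEM47 (0.10) and LEF1 (0.19), both also at 0 reads in the GOLPH3-labelled libraries. ZEB1 was nearest to PDE10A (0.36) and RADX (0.46), SNAI2 to TNC (0.48) and IL7R (0.73), TWIST1 to FOXO4 (0.14) and PLEKHO1 (0.16), and OVOL2 to GDF15 (0.35) and BHMG1 (0.39). SNAI1 was nearest to the mitochondrial ribosomal RNA MT-RNR1 (0.22) and to RHOV (0.25).

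Markers of other cells were counted beside these results, since in bulk RNA fewer cells of a type and less RNA per cell cannot be told apart. A list of 12 HEK293-like or neural-like markers had 7 of 10 tested genes lower in the GOLPH3-labelled libraries, beside 4.12% of all genes tested. Its summed level was 325 to 729 normalized reads there and 3115 to 10460 in the Vector libraries. IRS4, UCHL1, NEFL, NEFM and HAND1 were at 3 reads or fewer in all GOLPH3-labelled libraries only. Of these, NEFM and HAND1 had 0 reads there and passed the filter through the Vector libraries only. STMN2, INA and LHX1 were at 3 reads or fewer in all 6 libraries. HAND1 is also one of the EMT-associated factors counted above. TUBB3 (means of 288 and 102 in the GOLPH3-labelled and Vector libraries, limma adjusted p = 0.229) and PAX2 (126 and 113, adjusted p = 0.853) did not pass and had higher means with the GOLPH3 label. Between the groups, the summed level of this list was lower where ZEB1 and ZEB2 were lower. Within each group ZEB1 did not follow it. The P13 library had the highest sum (729 with the GOLPH3 label, 10460 with Vector) and the lowest ZEB1 (23.5 and 329 normalized reads). The part of this list in the ZEB1 and ZEB2 results was not tested. Of 9 colon epithelial markers tested (13 listed), KRT18 and KRT19 rose, beside 0.953% of all genes that rose. The list summed to 59750 to 131700 normalized reads in the GOLPH3-labelled libraries against 28230 to 40250 in the Vector libraries. Nearly all of each sum came from KRT8, KRT18, KRT19 and EPCAM. KRT8 had means of 47648 and 18929 in the GOLPH3-labelled and Vector libraries (limma adjusted p = 0.125). CDX1, TFF3, KRT20 and PHGR1 were at 3 reads or fewer in all libraries. EPCAM had means of 5994 and 3065 in the GOLPH3-labelled and Vector libraries (limma adjusted p = 0.103), and the intestinal transcription factor CDX2 had 289 and 499 (adjusted p = 0.636). Fibroblast markers summed to 825 to 1517 against 488 to 811, of which COL1A1 alone held 799.9 to 1499 and 466 to 726 (limma adjusted p = 0.151). PDGFRA was the 1 of 6 tested that was lower, beside 4.12% of all genes tested. It was at 3 reads or fewer in all GOLPH3-labelled libraries only. DCN, FAP, POSTN and COL1A2 were at 3 reads or fewer everywhere. Endothelial and leukocyte markers summed to at most 66.1 normalized reads in any library.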

How the data were processed

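Total RNA of 6 HCT-116 libraries was measured by sequencing. Per the labels, the submitters' processing notes name fastp 0.20.0, HISAT2 2.1.0, Cufflinks, featureCounts 1.6.1, DESeq2 and the build GRCh38, with no roles given. The values deposited by the authors are a normalized signal: read counts per gene divided by a size factor per library. Of the nonzero values of each library, 99.98% or more were whole multiples of the worth of 1 read (within 0.02 read), so reads were recovered. Where an identifier had 2 rows (44 cases) their values were summed, and 96.4% of identifiers were in GENCODE 29.

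Groups came from the titles. log2(normalized reads + 1) was tested with limma 3.58.1 (trend, two-sided, R 4.3.3) over the 26536 genes that reached 1 normalized read in 3 or more libraries, with Benjamini-Hochberg adjustment. Fold changes on this scale understate the change of low genes. On simulated data limma recovered 147 of 200 changed genes (log2 change 2) with 3 false calls among 27364. The simulation gave every gene the same relative spread beyond sampling noise, which was not matched to these replicates. Its rates therefore need not hold for these data. Alternatives were edgeR 4.0.16 and DESeq2 1.42.0 on recovered reads, other scalings, filters and pseudocounts, the replicate or P number in the model, and leaving out each library.

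Named were the 10 genes, CDH1, VIM, GOLPH3, up to 6 genes per list with the smallest p among those that passed (the top 3 where fewer did), and for each of the 10 the 2 most alike genes with a mean of at least 50. GSC, FOXF1, SOX9, SPINT1, TJP3, LSR, MMP14, MIR200CHG, genes that overlap a locus and marker genes were added after their values were seen. One gene that the rule names is not reported here. The 10 genes and all lists were chosen with earlier results of these data known. Replicates of a group differed by more than sampling noise (chi-square per degree of freedom of at least 74.9).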

Additional observations from a re-analysis of the deposited data

How the results depend on the processing

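No fitted fold change of the 10 genes or of the list genes that the rule names reversed its direction under these alternatives. Other named genes are not covered by this count, and of these OVOL1-AS1 did change sign (log2 fold change 0.45, range −0.52 to 1.53). Of 835 values of single genes under alternatives, 740 kept their direction and call (or, within a P pair, moved by less than 1 SD), 45 lost and 18 gained a call, and 32 moved. The 1346 genes with an adjusted p under 0.05 became 2046 with DESeq2, 2399 with the P number as a covariate, 6082 with the P number as a block (which leaves 1 residual degree of freedom) and 358 with no filter on low values. With 1 library left out they ranged from 804 to 1431. Of the 10 genes, the 2 that were higher became 5 with the P number as a block, 1 with a pseudocount of 0.1, and 0 with no filter or with no mean-variance trend. With 1 library left out the count was 0 to 2 (0 without GOLPH3 replicate 2 or 3 or Vector replicate 1 or 3). The 2 that were lower became 4 with the P number as a block and 1 with no filter, and 2 to 3 with 1 library left out. The cause of these shifts was not tested.

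With the replicate number of the titles as a block, 1081 genes passed, and among the 10 genes 1 was higher and 2 were lower. The replicate numbers were not taken to pair the libraries: deviations from the group means of same-numbered libraries correlated at −0.23, −0.15 and 0.26 over 26536 genes, and those of libraries with the same P number at 0.26 (P12) and 0.26 (P13). The highest correlation was 0.33, between the P8 GOLPH3-labelled and the P11 Vector library. At 15708846 to 21900764 reads per library, OVOL2 held 1 to 14 reads in the Vector libraries, and with 3 libraries per group the 95% intervals of SNAI1, TWIST1 and ESRP1 spanned 0.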
